A study of Mus musculus with 2 samples.

Results

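The genes described here encode the cytosolic ribosome and the factors that start and elongate translation. They were chosen by symbol alone: large and small subunit proteins (Rpl, Rplp, Rps and Rpsa symbols), initiation factors (Eif symbols) and elongation factors (Eef symbols), without the S6 kinases. The rule found 155 of the 22072 gene symbols in the tables, and 144 of the 155 were past the filter, which asked for an FPKM of 1 or more in either library. FPKM, the unit of every level below, counts sequenced fragments scaled to the transcript's length and to the mapped fragments of the library. Of the 144, Rpl26 and Eif2c4 reached that level in 1 library only, so they could enter only through the library where they are higher.

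The study sequenced RNA of sorted adult mouse lung epithelium in 2 libraries, 1 per genotype, each from the pooled RNA of 4 mice. All mice were adult, carried the tetOCre transgene with homozygous floxed alleles of Mst1 and of Mst2 (Mst1-flx/flx, Mst2-flx/flx) and ate doxycycline food at 625 mg/kg for 16 days. The Mst1/2 D/D mice carried Scgb1a1-rtTA in addition, a transactivator that lets doxycycline switch on Cre in cells where the club cell promoter Scgb1a1 is active. The label of the control mice lists no transactivator, so its presence, active Cre and the intended deletion cannot be told apart. The sort kept lineage-negative, CD326+ cells with intermediate CD24, a gate meant to enrich secretory cells of the airway without cilia. With 1 library per genotype no difference has a replicate check, no test was possible, and the mice within a pool cannot be separated. Every comparison below is therefore a description of 2 libraries.

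The targeted genes encode kinases that start the Hippo cascade, and the tables list Mst1 as Stk4 and Mst2 as Stk3. Stk4 stood at 5.38 FPKM in control and 4.71 in the library labelled Mst1/2-deleted, at a ratio of 0.874 (exact 95% counting interval 0.784 to 0.975). Stk3 stood at 7.28 and 7.09 FPKM, at a ratio of 0.975 (0.863 to 1.10). Both targeted genes thus remained expressed in the library labelled Mst1/2-deleted, and these whole-gene values do not show how many cells had lost an allele.

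In background terms, a ribosome is assembled in the nucleolus from ribosomal RNA and from proteins of the large and the small subunit, most of which are present once in each particle. Initiation factors bring the small subunit and the initiator tRNA to the start codon of a messenger RNA, and elongation factors then deliver the aminoacyl-tRNAs and move the ribosome along. Messenger RNAs of ribosomal proteins and of several translation factors typically begin with a C followed by a run of pyrimidines, the 5′ terminal oligopyrimidine (TOP) tract, through which mTORC1 signalling and the protein Larp1 control their translation and stability.

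The depth on the listed transcripts was about 8770000 reads for control and 8340000 for the Mst1/2-deleted label, and 9537 and 9559 genes reached an FPKM of 1. Differences are given on the log2(FPKM + 1) scale, as the library labelled Mst1/2-deleted minus control, so a negative value means a lower level in the former. Adding 1 FPKM understates the differences of low genes. Over the 9945 genes past the filter the median difference was 0.07, 9.73% of genes were at least 1.2-fold lower and 18.3% at least 1.2-fold higher. Genes with a difference below 0 made up 36.8% and those above 0 made up 63.2%.

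Cell type markers moved between the libraries too. The summed FPKM of 8 alveolar type 1 markers was 93.2 in control and 258 in the library labelled Mst1/2-deleted (ratio 2.77), with 7 of 8 at least 1.2-fold higher. The sum of 7 alveolar type 2 markers was 11161 and 13925 (ratio 1.25), with 4 of 7 higher. Of the 5 club cell markers 4 passed the filter, and 3 of those were lower (summed FPKM 11203 and 9828). Scgb1a1, the defining club cell gene, is listed at 0 in both libraries with the status HIDATA, which Cufflinks gives to a locus with too many fragments to process. That 0 is a missing estimate of a very abundant transcript, not a low level. Mucous markers (summed FPKM 31.4 and 10.1, 4 of 4 past the filter lower, Tff2 listed at 0 in the library labelled Mst1/2-deleted) and basal markers (21.8 and 7.52, 4 of 4 lower) were lower there. Ciliated markers summed to 32.0 and 50.8 FPKM, with 5 of 6 higher. Leukocyte markers summed to 13.4 and 6.46 FPKM, with 4 of the 6 past the filter lower and 2 higher. The higher ones were Csf1r (0.984 and 1.80 FPKM) and Cd79a (0.527 and 1.06). Of these 6 leukocyte markers, 5 passed only through the library where they are higher. Endothelial and mesenchymal markers summed to 24.4 and 12.0, with 2 of 3 lower. The alveolar type 2 gene Sftpc, at 7888 FPKM in control and 10270 in the other library, stood above the club cell gene Cyp2f2, at 4694 and 5305 FPKM, so the labelled secretory airway gate also held a strong alveolar type 2 signal. In all, 12 of the 42 markers past the filter reached it in 1 library only (2 mucous, 1 basal, 3 ciliated, 1 alveolar type 1 and 5 leukocyte markers), so the filter partly fixed the direction of those. The part of these marker differences in the results below was not tested. In pooled bulk RNA, fewer cells that hold much ribosomal protein mRNA and less of it per cell cannot be told apart.

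Ribosomal protein messages were lower as a class in the library labelled Mst1/2-deleted, by a small amount. Of the 77 core ribosomal protein genes 76 passed the filter. Of these, 67 had a difference below 0, 33 (43.4%) were at least 1.2-fold lower and 3 (3.95%) at least 1.2-fold higher, beside 9.73% and 18.3% of all genes. When each gene was set against non-members of similar length, 19 of the 76 (25%) were lower by 1.2-fold or more and 3 higher. Non-members were not treated in the same way. Without such treatment, 18.3% of non-members between 444.5 and 1408 bases were lower. Their median length was 1018 bases, beside 693.5 for the core genes. The median difference of the class was -0.21, equal to 1.15-fold lower. At 1.5-fold 0 were lower and 2 higher, beside 2.59% and 3.02% of all genes. Summed over the class, FPKM was 9272 in control and 7988 in the other library, which is 6.36% and 5.29% of each library's summed FPKM. The exact 95% counting interval of the ratio lay wholly below 1 for 58 genes, wholly above 1 for 4 (Rpl3, Rpl30, Rps19 and Rps23) and included 1 for 13. The remaining gene, Rpl26, had no interval. These intervals cover counting error only. The same count was not made over all genes, so no share stands beside these numbers. Intervals are narrower where reads are many, and the median control level was 81.3 FPKM in the core genes and 3.68 in all genes past the filter.

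**Figure D1:**
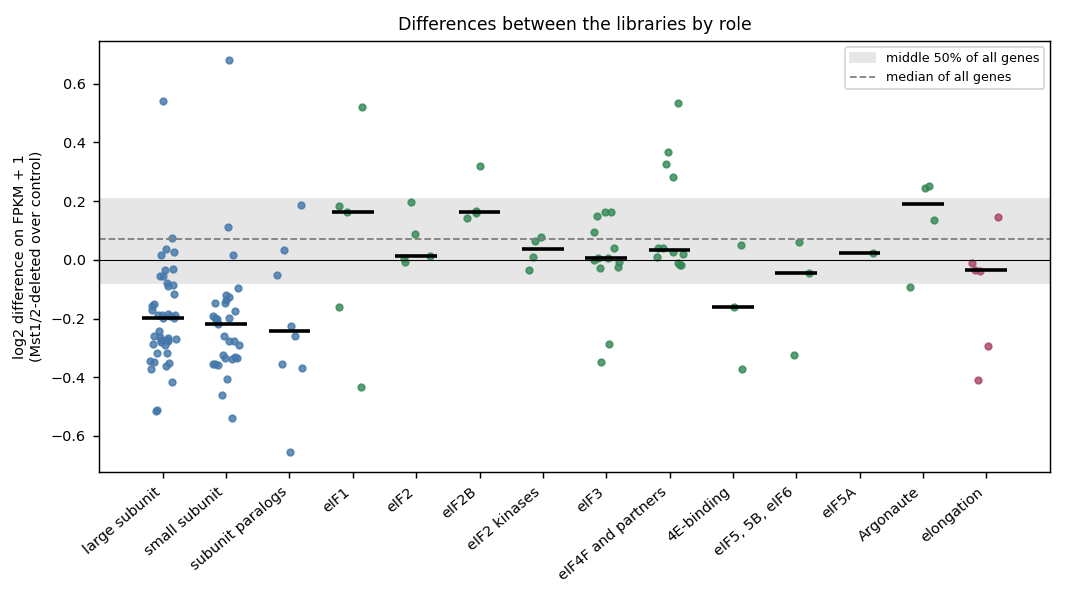
Log2(FPKM + 1) difference (library labelled Mst1/2-deleted minus control) of each member past the filter, by role; each point is 1 gene, spread sideways only for legibility, black bars are class medians, and the dashed line and grey band are the median and the middle 50% of all genes. The subunit medians, -0.20 and -0.22, lie below the band, while the eIF2, eIF3 and eIF4F medians lie within it; Rpl26, at 1.80, is not drawn.

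Large subunit proteins form the peptidyl transferase side of the ribosome and its exit tunnel. Of 46 genes 45 passed the filter, 39 of them (86.7%) were below 0, and the median difference was -0.20. By 1.2-fold or more, 19 (42.2%) were lower and 2 (4.44%) higher. The shares of all genes were 36.8% below 0, 9.73% lower and 18.3% higher. The lowest difference was that of Rpl41, which encodes the smallest ribosomal protein, at 534 FPKM in control and 373 in the library labelled Mst1/2-deleted (ratio 0.699, counting interval 0.671 to 0.727). Rpl27a stood at 32.1 and 22.2 FPKM (ratio 0.692, 0.624 to 0.767). Rplp1, a protein of the acidic stalk that recruits elongation factors, stood at 68.4 and 51.0 (ratio 0.745, 0.669 to 0.829). Its stalk partners Rplp0 (46.5 and 35.7 FPKM) and Rplp2 (26.4 and 21.9) were lower as well. The stalk genes were thus below 0, as were 39 of the 45 large subunit genes past the filter. The interval of Rplp2, from 0.698 to 0.986, comes close to 1.

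The most abundant subunit message was Rpl10, whose protein joins the large subunit late in its assembly. It was listed at 970 FPKM in control and 803 in the other library (ratio 0.828, 0.811 to 0.845). By contrast Rpl10a, another abundant message of the large subunit, stood at 451 and 456 FPKM (ratio 1.01, 0.983 to 1.04). Rpl5 (103 and 92.6 FPKM) and Rpl11 (125 and 109.6 FPKM), which bind 5S ribosomal RNA and can restrain the p53 regulator Mdm2 when free, differed by -0.15 and -0.19. Rpl3, Rpl4, Rpl7, Rpl10a and Rpl21 differed by -0.03 to 0.07, with Rpl3 at 95.2 and 100.2 FPKM, Rpl4 at 221 and 216, Rpl7 at 44.4 and 45.6 and Rpl21 at 103 and 105. The class was therefore not shifted by 1 common amount: the large subunit genes at or above 10 FPKM in control number 42, and their differences run from -0.52 in Rpl41 to 0.07 in Rpl3.

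**Figure D2:**
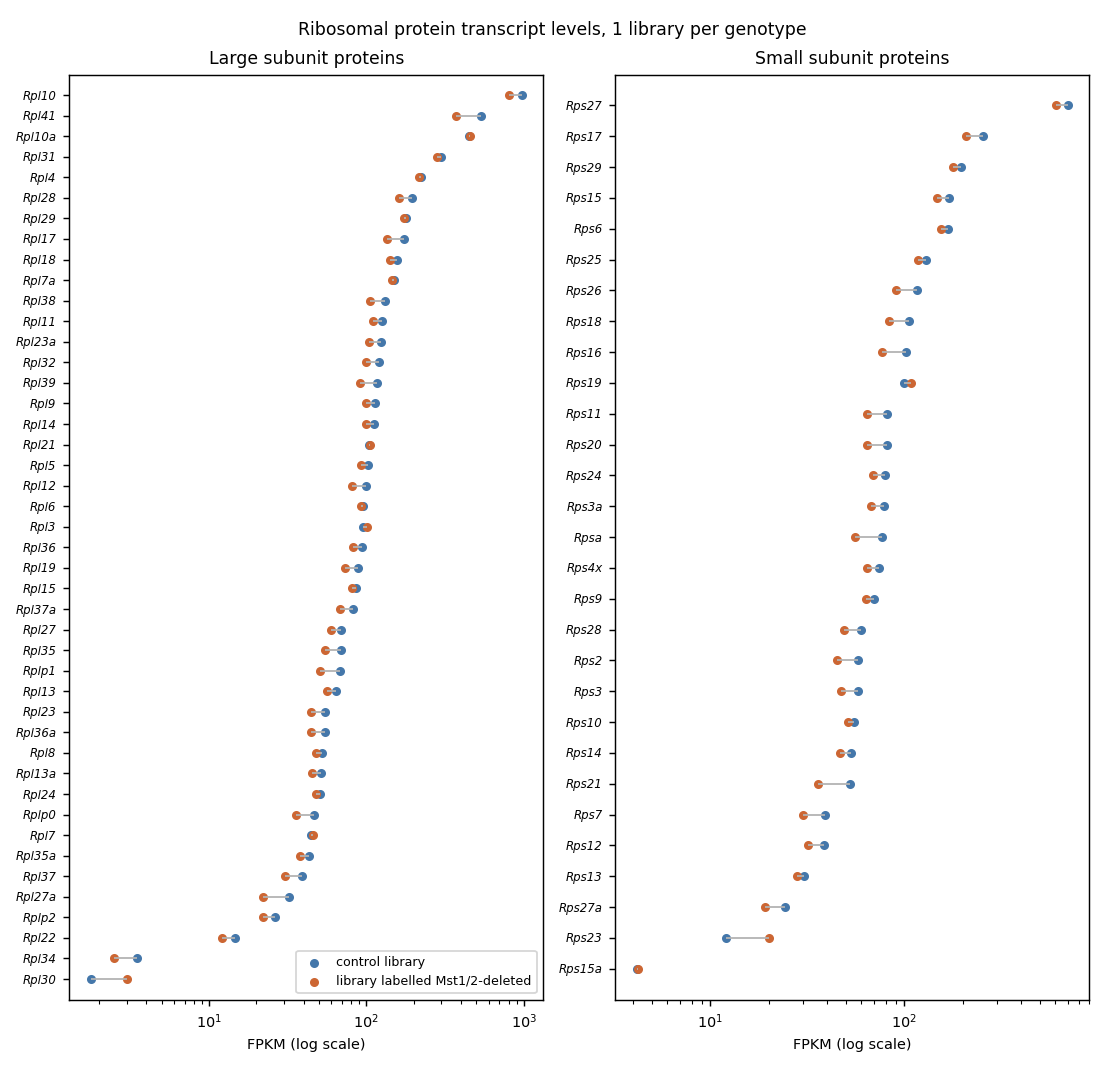
FPKM on a log scale of core ribosomal proteins of the large subunit (left) and small subunit (right), with genes ordered by level from top to bottom; blue points are the control library, orange points the library labelled Mst1/2-deleted, and a grey line joins the 2 points of a gene, with no error bars. Orange lies left of blue for most genes over the whole range of levels, and Rps23 (12.1 and 19.96 FPKM) and Rpl30 (1.77 and 3.03) show the reverse; Rpl26, listed at about 0 in control, and a few other genes are not drawn.

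The large subunit genes at least 1.2-fold higher in the library labelled Mst1/2-deleted, Rpl30 and Rpl26, were at low FPKM. Rpl30 was listed at 1.77 and 3.03 FPKM, about 28 and 42 reads (ratio 1.71, 1.04 to 2.86). For Rpl26 the control value was about 0, with 0 approximate reads. The other library held 2.48 FPKM from about 33 reads, so no fold is given. The median of the large subunit genes past the filter was 94.0 FPKM in control. Of the short sequence windows of the Rpl26 transcript, 73.9% also occur in transcripts of 13 other genes. For Rpl30 the share was 80.6%, with 18 other genes. Whether reads of Rpl26 and Rpl30 were assigned to such near copies was not tested. Their values therefore do not show that either gene was switched on or raised. Rpl34 stood at 3.46 and 2.497 FPKM, while the symbol Rpl34-ps1, placed at the same locus (mm9 chr3:130429755-130433247), carried 72.7 and 45.7 FPKM (ratio 0.629, 0.560 to 0.707). The reads at this locus were thus assigned mostly to the pseudogene symbol, and no value can be taken for Rpl34 alone.

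Small subunit proteins surround the decoding centre that reads the codon. All 31 genes passed the filter, 28 (90.3%) were below 0, and the median difference was -0.22. At least 1.2-fold lower were 14 (45.2%), and 1 (3.23%) was higher. The shares of all genes were 36.8% below 0, 9.73% lower and 18.3% higher. Rps21 showed the lowest difference, with 52.6 FPKM in control and 35.9 in the library labelled Mst1/2-deleted (ratio 0.681, 0.594 to 0.781). Rpsa, a small subunit protein also known as the laminin receptor precursor, stood at 77.0 and 55.7 (ratio 0.723, 0.688 to 0.761), and Rps16, at the decoding face, at 102 and 76.6 (ratio 0.751, 0.696 to 0.810). Rps27, the most abundant small subunit message, was lower by less and stood at 697 and 606 FPKM (ratio 0.870, 0.839 to 0.903). Rps6, the S6 kinase substrate, stood at 168 and 154 (ratio 0.919, 0.886 to 0.953).

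Rps23, whose protein lies at the decoding centre and is needed for accurate reading, went the other way at 12.1 and 19.96 FPKM (ratio 1.65, 1.36 to 2.01). Rps19, mutated in Diamond-Blackfan anaemia, stood at 99.7 and 108 FPKM (ratio 1.08, 1.01 to 1.16). Rps15a, at 4.17 and 4.24 FPKM, was about equal. The difference of Rps23 was the only one in the small subunit at least 1.2-fold higher.

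Some subunit proteins lie outside the symbol rule. Gnb2l1, the scaffold protein Rack1 of the small subunit, stood at 42.8 and 36.1 FPKM. Fau, which encodes a ubiquitin-like protein fused to a small subunit protein, stood at 44.1 and 41.3 FPKM. In the list of 10 such genes and TOP messages to which they belong, 0 were past 1.2-fold in either direction, the median difference was -0.04, and the highest differences were those of Nap1l1 (20.8 and 24.1 FPKM) and Hnrnpa1 (3.45 and 4.06).

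Ribosomal protein transcripts are short, and short genes were lower in this library in general, so the class was set beside other genes of similar length. Among the 1586 non-member genes between 444.5 and 1408 bases, the range left when the shortest and the longest core ribosomal proteins are set aside, 18.3% were at least 1.2-fold lower, 17.0% higher and 50.1% below 0. With the FPKM range of the core genes (28.5 to 209 in control) required too, 151 genes remained, of which 16.6% were lower and 14.6% higher, with a median difference of -0.02. The class lay below these comparison genes, at 43.4% lower and a median of -0.21, but its transcripts were also shorter. Median lengths were 693.5 bases in the core genes, 1018 in the 1586 genes and 939 in the 151. Of non-members between 300 and 600 bases 28.0% were lower, and of those between 600 and 900 bases 23.3%. Gene by gene, 69 of the 76 lay below the median of non-members within 20% of their own length, 27 lay in the lowest 25% of those and 3 in the highest 25%. After the median of those non-members was taken from each gene, the median difference was -0.17 and the count at least 1.2-fold lower went from 33 to 19. The same was not done for the non-members, so no share of theirs stands beside the 19.

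The gap was present at each length that held several core genes. Between 300 and 600 bases the median difference was -0.26 for 30 core ribosomal proteins and -0.09 for 211 non-members. Between 600 and 900 bases the medians were -0.19 for 24 and -0.04 for 429, between 900 and 1500 bases -0.18 for 14 and 0.03 for 1215, and between 1500 and 2500 bases -0.21 for 6 and 0.06 for 2360. Among non-members the share at least 1.2-fold lower went from 28.0% in the first range to 9.70% in the last of these. Among the core genes it also fell at first, from 50% (15 of 30) to 37.5% (9 of 24) and 35.7% (5 of 14). In the last range it was 50%, on 6 genes only (3 of 6).

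**Figure D3:**
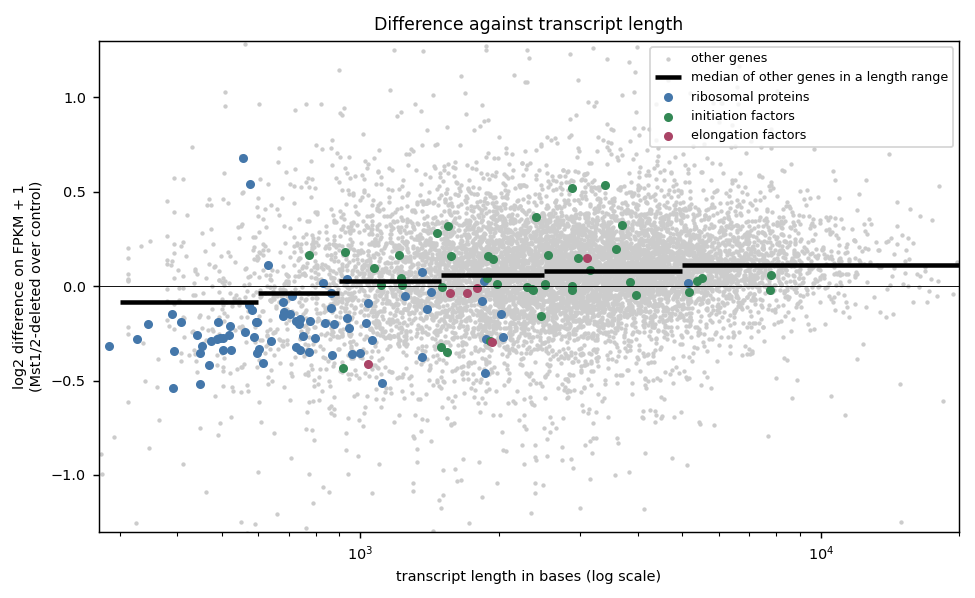
Log2(FPKM + 1) difference (library labelled Mst1/2-deleted minus control) against transcript length in bases (log axis); grey points are other genes, blue, green and red points are core ribosomal proteins, initiation factors and elongation factors, and black bars are medians of the other genes in each length range. Most blue points lie below the black bars from 300 to 2500 bases (in the shortest range the medians are -0.26 and -0.09); genes beyond the axis limits, Rpl26 among them, are not drawn, and the longest range is cut short at the limit.

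Counts over 2 other large protein complexes are given without a gene-by-gene comparison of length. Of 76 mitochondrial ribosomal protein genes 74 passed the filter, 15 (20.3%) were at least 1.2-fold lower and 5 (6.76%) higher, and the median difference was -0.08. Their median length was 1028.5 bases, and the share lower is close to the 18.3% of non-members of 444.5 to 1408 bases. The share higher was under the 17.0% of those non-members, and 60.8% were below 0, beside 50.1%. This class was thus also tilted downward. Of 40 proteasome subunit genes 38 passed the filter, 1 (2.63%) was lower and 1 (2.63%) higher, beside 9.73% and 18.3% of all genes. Their median was 0.03.

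Paralogs and pseudogene symbols that match the rule numbered 12, of which 8 passed the filter. Among the 8, 6 were below 0 and 3 (37.5%) were at least 1.2-fold lower, beside 9.73% of all genes. Beside Rpl34-ps1, the lower members were Rps19-ps3 (3.88 and 2.78 FPKM) and Rpl7l1 (4.45 and 3.27 FPKM). Rpl36al, a near copy of Rpl36a, stood at 129 and 107 FPKM, Rps27l, a p53-inducible paralog of Rps27, at 12.9 and 13.3, and Rpl22l1, a paralog of Rpl22, at 25.2 and 24.3. The tissue-restricted paralogs were at or near 0: Rpl10l was listed at 0 in both libraries, Rpl3l at 0.0697 and 0.0426 FPKM, and Rpl39l at about 3 reads in control and 0 in the other library.

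Many ribosomal protein genes have processed pseudogenes and near copies, so the sharing of sequence was measured on matched GENCODE transcripts (build GRCm38) as the share of a transcript's 40-base windows that also occur in transcripts of another gene. The median share was 58.2% over 77 core ribosomal proteins, 3.67% over 44 initiation factors and 11.2% over 8 elongation factors. The 47 core genes with at least 50% shared windows had a median difference of -0.19 (40 of 47 below 0), and the 30 with less, whose median share was still 36.9%, had a median of -0.28 (28 of 30 below 0). Some matched transcripts were longer than those listed with the FPKM, such as that of Rps24 (1613 and 837 bases, share 22.4%). How far this changed the shares, and so the split at 50%, was not tested. How the deposited values split reads among near copies was not tested.

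**Figure D4:**
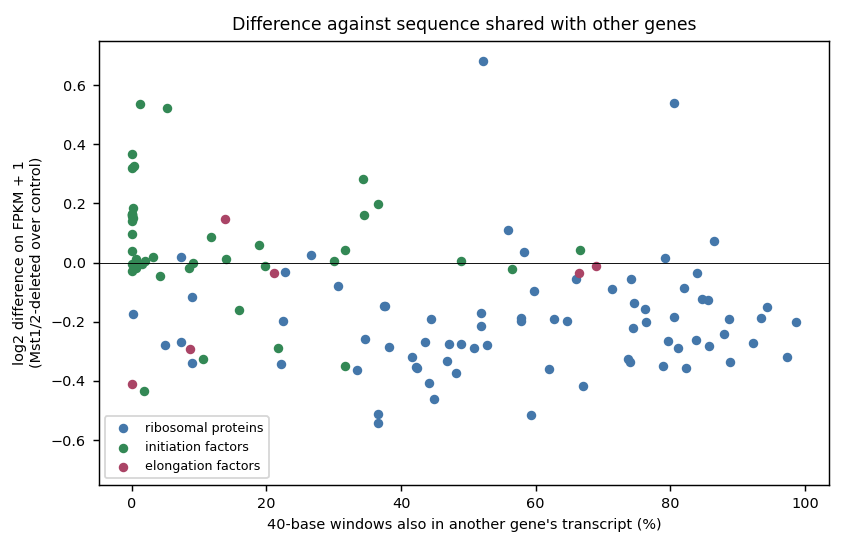
Log2(FPKM + 1) difference (library labelled Mst1/2-deleted minus control) against the percent of a transcript's 40-base windows that also occur in another gene, for core ribosomal proteins (blue), initiation factors (green) and elongation factors (red) past the filter; each point is 1 gene. Blue points lie mostly below 0 over the whole axis (medians over all 77 genes of -0.28 under 50% and -0.19 from 50%); Rpl26, at a difference of 1.80, is not drawn.

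The first 20 bases of the matched GENCODE transcripts are shown to set the TOP tract beside the values, first for 6 members picked because their annotated start carries the tract, then for Rpl41 and Rps23, members at the extremes that do not. Capitals mark a start with C followed by at least 4 pyrimidines, as far as the run of pyrimidines goes, 5′ to 3′.
Rps21: CCCTCCTgcccaatagtgct
Rpl37: CTCTTCCggtctctttggcc
Rpl32: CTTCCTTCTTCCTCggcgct
Rpl4: CTTTTCCTgtgggagcagcc
Rpl30: CCTTTCTCgctccccggcca
Eif3f: CTCTTTCTCggcaagatggc
Rpl41: gacgacaccgagcacgccat
Rps23: cctgaaaaggaaataacagc
Such a start was annotated for 8 of 76 core ribosomal proteins (10.5%), 2 of 41 initiation factors, 0 of 6 elongation factors and 228 of 9778 genes past the filter (2.33%). Annotated starts are often some bases away from the true start, so a missing tract says only that these letters do not open the annotated transcript. For some genes the matched transcript also differs in length from the one listed with the FPKM. Among the genes shown, Rps23 has 937 bases in the match and 555 in the list, and Eif3f 2514 and 1507. For such genes the letters need not open the listed transcript. Among the genes shown with the tract, Rps21 (-0.54), Rpl37 (39.2 and 30.3 FPKM, -0.36) and Rpl32 (121 and 99.8 FPKM, -0.27) were lower, Rpl4 differed by -0.03, Eif3f (36.0 and 35.9 FPKM) by -0.01 and Rpl30 by 0.54. Without it, Rpl41 differed by -0.52 and Rps23 by 0.68. Core ribosomal proteins with the annotated tract had a median difference of -0.23 and those without it -0.21.

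The promoters of the 4 genes with the lowest differences among the core ribosomal proteins, Rps21, Rpl41, Rpl27a and Rpsa, each hold the letters CCGGAAG, the core that ETS factors such as Gabpa bind, on 1 of the 2 strands. The stretches below come from RefSeq promoters (build GRCm38.p6, 250 bases before to 50 after the start) and are written 5′ to 3′ on the gene's strand, with the match in capitals. They lie at chr2:180257323-180257378 (plus strand, Rps21), chr10:128549188-128549254 (minus strand, Rpl41), chr7:109518996-109519062 (plus strand, Rpl27a) and chr9:120127548-120127614 (plus strand, Rpsa).
Rps21: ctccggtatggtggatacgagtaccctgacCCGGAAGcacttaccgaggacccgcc
Rpl41: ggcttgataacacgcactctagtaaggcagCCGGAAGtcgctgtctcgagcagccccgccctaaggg
Rpl27a: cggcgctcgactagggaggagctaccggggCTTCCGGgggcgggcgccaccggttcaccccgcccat
Rpsa: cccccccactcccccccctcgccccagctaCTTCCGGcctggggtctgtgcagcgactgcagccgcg
In Rpl27a and Rpsa the capitals are the reverse complement, CTTCCGG. Over both strands these letters were found in 23 of 56 matched core ribosomal protein promoters (41.1%), in 12 of 35 initiation factor promoters (34.3%) and in 21.4% of 6998 promoters of genes past the filter. The YY1 core AAGATGGC was found in 5 of the 56 (8.93%, beside 5.69%), TATAAA in 6 (10.7%, beside 8.67%) and the cyclic AMP element TGACGTCA in 5 (8.93%, beside 3.70%). A match describes the letters only.

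Initiation factors as a class lay near the whole transcriptome. Of 45 genes 42 passed the filter, 14 were below 0, 4 (9.52%) were at least 1.2-fold lower and 6 (14.3%) higher, shares that lie near those of all genes (9.73% and 18.3%). With the median of all genes set to 0, 3 instead of 6 were higher (Eif1a, Eif4h and Eif4e2). Their median difference was 0.03, and it was -0.04 when the median of all genes was set to 0 and -0.02 after conversion to TPM. Their summed FPKM was 746 and 775. The counting interval lay wholly below 1 for 4 genes, wholly above 1 for 10 and included 1 for 28. No count of such intervals over all genes stands beside these.

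The eIF1 and eIF1A proteins scan for the start codon. Eif1 stood at 61.5 FPKM in control and 69.0 in the library labelled Mst1/2-deleted (ratio 1.12, 1.05 to 1.19), and Eif1a at 9.57 and 14.2 (ratio 1.48, 1.35 to 1.63). Its X-linked counterpart Eif1ax stood at 6.32 and 7.31 FPKM (ratio 1.16, 0.924 to 1.45), Eif1b at 4.04 and 2.73 (ratio 0.676, 0.483 to 0.939), and Eif1ad at 2.61 and 2.23 (ratio 0.855, 0.677 to 1.08). Eif1a and Eif1b thus went apart by more than counting error, in opposite directions.

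The eIF2 complex carries the initiator tRNA, and eIF2B reloads it with GTP. Of eIF2, Eif2s1 (4.80 and 5.16 FPKM), Eif2s2 (14.5 and 14.6) and the X-linked Eif2s3x (14.7 and 17.0, ratio 1.16, 1.07 to 1.24) are the alpha, beta and gamma subunits. Of these, Eif2s3x alone had an interval wholly above 1, and its Y-linked copy Eif2s3y was listed at 0 in control and 0.0273 in the other library. Eif2a (17.6 and 17.6 FPKM) and Eif2d (4.08 and 4.13), which can deliver initiator tRNA outside eIF2, were about equal. All 4 eIF2B genes past the filter were above 0, as were 63.2% of all genes. Eif2b1 stood at 4.24 and 4.78 FPKM (ratio 1.13, 0.933 to 1.36) and Eif2b2 at 4.32 and 4.94 (1.14, 0.928 to 1.41). Eif2b5 stood at 2.51 and 2.94 (1.17, 0.945 to 1.45) and Eif2b3 at 1.53 and 2.16 (ratio 1.41, 1.02 to 1.95). Only the interval of Eif2b3 excludes 1. Eif2b4, at 0.864 and 0.838, did not pass. The kinases that phosphorylate eIF2 under stress were near 0: Eif2ak1 (the haem-regulated kinase) stood at 7.01 and 7.37 FPKM, Eif2ak2 (PKR) at 3.81 and 3.84, Eif2ak3 (PERK) at 2.74 and 2.65, and Eif2ak4 (GCN2) at 2.29 and 2.48.

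The large complex eIF3 holds the small subunit open for the messenger RNA. All 13 genes passed the filter, and 6 were below 0. The 1.2-fold threshold was passed by 2 (15.4%) downward and 0 upward, beside 9.73% and 18.3% of all genes. The median difference was 0.01, and the summed FPKM was 294.9 and 295.4. Eif3e stood at 19.7 and 15.2 FPKM (ratio 0.774, 0.694 to 0.863) and Eif3d, which can bind the cap, at 8.51 and 6.79 (ratio 0.798, 0.688 to 0.924). These members lay apart from the core subunits Eif3a (41.6 and 40.8 FPKM) and Eif3c (31.7 and 31.7). The most abundant other member, Eif3h, stood at 39.0 and 40.2, and the highest differences were those of Eif3k (14.8 and 16.7), Eif3l (15.8 and 17.8) and Eif3b (7.47 and 8.39).

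The eIF4F complex binds the messenger RNA cap and unwinds its leader. Of 13 genes of this group 12 passed the filter. Of these, 0 were lower by 1.2-fold or more and 4 (33.3%) higher, beside 9.73% and 18.3% of all genes. The cap-binding protein Eif4e stood at 7.31 and 7.20 FPKM, the scaffold Eif4g1 at 14.3 and 14.6, the helicases Eif4a1 and Eif4a2 at 41.3 and 42.6 and at 57.6 and 57.1, and the related scaffold Eif4g2 at 37.6 and 37.2. With the rows of each gene summed these subunits were close to equal, but when the highest row alone was taken Eif4a2 differed by -0.20. The 4 higher genes are Eif4e2, a cap-binding repressor (2.32 and 3.80 FPKM, ratio 1.64, 1.35 to 2.01), the helicase partner Eif4h (23.3 and 30.3, ratio 1.301, 1.21 to 1.39), Eif4enif1, which carries eIF4E into the nucleus (4.30 and 5.65, ratio 1.31, 1.15 to 1.497), and Eif4a3, the exon junction helicase (9.56 and 11.8, ratio 1.24, 1.08 to 1.43). Eif4enif1 and Eif4a3 fell short of 1.2-fold when the median of all genes was set to 0. The germ cell gene Eif4e1b was listed at 0 in control and at 0.0155 FPKM in the other library.

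The 4E-binding proteins hold eIF4E away from eIF4G until mTORC1 phosphorylates them. Eif4ebp2, the most abundant, stood at 32.1 and 33.3 FPKM, Eif4ebp1 at 3.31 and 2.33 (ratio 0.704, 0.493 to 0.997) and Eif4ebp3 at 1.53 and 1.27. Eif4ebp1 was the only member of these 3 at least 1.2-fold lower, at a depth where its interval nearly reaches 1. Eif5, the GTPase activator of eIF2, stood at 30.4 and 29.4 FPKM, and Eif5b, which joins the subunits, at 11.2 and 11.8. Eif6, which keeps the large subunit from joining too early, stood at 6.21 and 4.76 FPKM (ratio 0.766, 0.627 to 0.933). Eif5a, the hypusine-bearing factor that helps the ribosome over difficult peptide bonds, stood at 54.6 and 55.6 FPKM (a difference of 0.02, but -0.24 for its highest row alone), and Eif5a2 at 0.289 and 0.388. The Argonaute genes, listed under their older Eif2c symbols and part of microRNA silencing, were above 0 for Eif2c1 (3.29 and 4.12 FPKM, ratio 1.25, 1.12 to 1.39), Eif2c2 (4.83 and 5.40) and Eif2c4 (0.846 and 1.19), and below for Eif2c3 (1.76 and 1.59).

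Elongation factors stayed close to equal in their abundant members. Of 8 genes 6 passed the filter. Of these, 2 (33.3%) were at least 1.2-fold lower and 0 higher, beside 9.73% and 18.3% of all genes. The summed FPKM was 810.4 and 817. Eef1a1, which delivers aminoacyl-tRNA, stood at 578 and 574 FPKM (ratio 0.993, 0.976 to 1.01), and Eef2, which moves the ribosome along, at 153 and 170.0 (ratio 1.11, 1.08 to 1.14). Neither of these messages was lower beyond counting error. In the exchange factor eEF1B, Eef1b2 stood at 17.8 and 14.4 FPKM (ratio 0.806, 0.729 to 0.891), Eef1d at 4.64 and 4.50, and Eef1g at 53.8 and 52.5. Eef1e1, a partner of the tRNA synthetase complex, stood at 2.36 and 1.53 FPKM (ratio 0.648, 0.425 to 0.977). The eEF2 kinase Eef2k was under the filter in both libraries (0.254 and 0.131 FPKM), and Eef1a2, the muscle and neuron form, was listed at 0 in control and 0.0223 in the other library.

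Where a gene had several transcript rows, the rows did not always move together. For Rps24 the 837-base row stood at 51.2 and 39.1 FPKM, the 857-base row at 23.8 and 28.9 and the 875-base row at 4.35 and 1.03. For Rpl35a the 506-base row stood at 13.2 and 5.44 FPKM and the 490-base row at 29.99 and 32.3. In Rpl38 the 285-base row, marked as low data in both libraries, carried 78.1 and 69.1 FPKM, the 352-base row 46.2 and 23.9, and the 369-base row 6.54 and 11.8. Rows of 1 gene share most of their reads, so the summed gene value is the one compared above.

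The genes that regulate or assemble the ribosome were examined from 5 further lists. Of 8 release and recycling factors past the filter, neither direction held a gene past 1.2-fold. The extremes were Gspt1, the release GTPase (6.30 and 5.94 FPKM), Abce1, which splits ribosomes (9.37 and 9.05), and on the other side the recycling partners Denr (1.60 and 2.06) and Mcts1 (2.40 and 2.72). Of 27 biogenesis genes past the filter, 2 (7.41%) were lower and 0 higher, beside 9.73% and 18.3% of all genes. The median difference was -0.03. The lower genes were Rrs1 (1.18 and 0.646 FPKM), an assembly factor of the large subunit, and Polr1b (1.58 and 0.974), a subunit of RNA polymerase I. Both passed the filter only through control, where they are higher, so the filter partly fixed this count. Ubtf, the ribosomal DNA transcription factor, stood at 2.68 and 3.36 FPKM and Wdr12, of the large subunit PeBoW complex, at 0.729 and 1.05, past the filter only through the latter.

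Of 20 cytosolic tRNA synthetases 1 (5%) was lower and 0 higher, beside 9.73% and 18.3% of all genes, with a median difference of -0.06. Rars, which charges arginine, stood at 5.93 and 4.51 FPKM and Vars, for valine, at 4.53 and 3.61, while Wars, for tryptophan, stood at 9.81 and 12.0 and Lars, for leucine, at 4.92 and 6.08. Of 15 mTORC1 and S6 kinase genes past the filter 1 (6.67%) was lower and 3 (20%) were higher, near the 18.3% higher of all genes, and the median was 0.09 beside 0.07 for all genes. The eIF4A inhibitor Pdcd4 was listed at 11.3 and 7.16 FPKM and Rps6ka1 at 3.62 and 3.03. On the other side, the S6 kinase Rps6kb2 stood at 3.05 and 5.13 FPKM, and the mTORC1 subunit Mlst8 at 0.663 and 1.06, past the filter only through the latter. Of 14 genes of the response to eIF2 phosphorylation past the filter, 3 (21.4%) were lower and 1 (7.14%) was higher. The shares of all genes were 9.73% and 18.3%, and the median of the list was -0.18. The cystine transporter Slc7a11 (4.57 and 0.771 FPKM, past the filter only through control) and the transcription factor Atf5 (3.42 and 1.78) were the lowest, Vldlr (1.64 and 2.27) and the phosphatase subunit Ppp1r15b (4.97 and 5.40) the highest.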

How the data were processed

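RNA-seq of 2 libraries, each of pooled RNA from 4 mice, was analysed from the deposited transcript tables (28107 rows each). The submitters' processing notes name TopHat, Cufflinks and mm9 but no versions; for read length and strandedness the sources used here give nothing. The columns, per the file headers, are FPKM as the authors computed it, a coverage signal (the authors' mean depth over the transcript) and the transcript length. FPKM was summed per gene symbol, genes reaching an FPKM of 1 in either library were kept, and differences were taken on log2(FPKM + 1), with a pseudocount of 1. A gene was counted as lower or higher from 1.2-fold on that scale. Coverage times length divided by 47.1 bases, an assumed size per read, gave approximate reads, from which exact (Clopper-Pearson) 95% intervals of ratios were computed. They cover counting error only, since amplified reads are not independent molecules. Non-members within 20% of a gene's length served as comparison genes; 17 to 2420 were found per gene.

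Start sequences came from GENCODE M21 transcripts matched by RefSeq accession (152 of 155 members), and promoters from RefSeq. Coordinates of loci are mm9, raised by 1 to count from 1; those of promoters are GRCm38.p6. Members and lists were chosen with earlier results of these data known. The genes named are, per role class, the 3 lowest and 3 highest differences and the 2 most abundant, all members of classes of 5 or fewer, the 2 extremes per direction of each further list, and members listed at 0 or with a status other than OK, except a few that are not reported here; further members named with their partners were chosen after their values were seen. The procedure was tested on simulated data only for large differences with counting noise, scored at 1.5-fold. That test does not cover the calls at 1.2-fold. Alternatives were a pseudocount of 0.1, no filter or a filter of 5, TPM, centring, highest rows, OK rows only, similar length and level, and 1.5-fold. Python 3.11.15, numpy 2.4.6, pandas 2.3.3, scipy 1.17.1 and matplotlib 3.10.9 were used.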

Additional observations from a re-analysis of the deposited data

How the results depend on the processing

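The class medians kept their direction for the large subunit (-0.27 to -0.16) and the small subunit (-0.29 to -0.20) under every alternative run, and for elongation factors (-0.11 to -0.02), whereas that of initiation factors ran from -0.06 to 0.05. Set against non-members of similar length, 10 large and 9 small subunit genes were at least 1.2-fold lower instead of 19 and 14, and the same 10 and 9 counts were found with level matched too (of 40 and 28 genes with a match). At 1.5-fold the counts were 0 lower and 1 higher in the large subunit, 0 lower in the small subunit, 0 lower and 0 higher among initiation factors and 0 lower among elongation factors. A filter at FPKM of 5 left 0 higher in the large subunit and 1 lower elongation factor. Centring on the median of all genes gave 3 higher initiation factors instead of 6; it moved the split of all genes from 9.73% lower and 18.3% higher to 14.1% and 11.9%, and conversion to TPM moved it to 12.0% and 14.4%. Of the 70 named members with a value, 50 kept it within counting error under each alternative that gave one, and 43 had a value under all of them, 27 of these within counting error. The sign changed under at least 1 alternative for 16 members, mostly near 0. Rpl3, whose interval excludes 1, reversed from 0.07 to -0.038 against genes of similar length and level, and with the highest row per symbol Eif5a went from 0.02 to -0.24 and Eif5 from -0.05 to 0.05. Rpl26 went from 1.80 to 4.69 with a pseudocount of 0.1. The cause of these changes was not tested, apart from the stricter fold and filter, which count fewer genes by construction. No paired analysis was possible because there is 1 library per genotype, and no library could be left out for the same reason. Depth limits the genes at low FPKM: the median counting half-width was 0.11 (log2) for both subunits and 0.16 for initiation factors.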
